A study of Mus musculus with 24 samples.

Results

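The 10 genes described here, which mouse cells use to halt division, to slow growth under stress or to answer glucocorticoids, were followed in epididymal fat and liver of mice lacking the fatty acid receptor GPR120. Of 18193 genes named on the array, they were Cdkn1a, Mdm2, Gadd45a, Gadd45b, Gadd45g, Ddit4, Fkbp5, Tsc22d3, Per1 and Rasd1. They were taken as a list of names, with earlier results of these data known. The probe sets were chosen by mean signal: each gene was read in each tissue by the probe set that names it alone and has the highest mean signal over the arrays of that tissue. That choice used signal levels, so levels are given here as description. The study set GPR120 knockout (KO) mice against wild-type (WT) mice, on a high-fat diet (HFD) and on a normal diet (ND), to ask whether the receptor takes part in diet-induced obesity. The groups were KO mice on HFD (mice 427, 428 and 429), WT mice on HFD (546, 547 and 560), KO mice on ND (718, 719 and 720) and WT mice on ND (686, 687 and 690). All 12 mice were of a mixed 129/Sv and C57BL/6 background, and each gave 1 array of fat and 1 of liver, 24 arrays in 8 groups of 3. The labels give neither age and weeks on diet nor the design of the KO allele. They do not name the sex either, but each mouse gave epididymal fat, a depot of males.

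Cdkn1a encodes the cyclin-dependent kinase inhibitor p21, and Mdm2 the ubiquitin ligase that degrades p53; both are targets of p53, the transcription factor that halts damaged cells. The Gadd45 proteins bind p21, PCNA and the stress kinase MEKK4, and Ddit4 (REDD1) restrains the growth kinase complex mTORC1. Corticosterone, the main glucocorticoid of mice, acts through the glucocorticoid receptor, which induces Fkbp5, a co-chaperone that feeds back on that receptor, Tsc22d3, which encodes the anti-inflammatory protein GILZ, the clock gene Per1, and Rasd1, a Ras-like GTPase known as dexamethasone-induced Ras. Several of these genes, Ddit4 and Cdkn1a among them, answer to both fasting and glucocorticoids in liver.

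RefSeq promoter windows (build GRCm38.p6) were at hand for 9 of the 10 genes, 13 windows of 250 bases before a start site. The 6 below belong to the p53 targets, Gadd45 genes, Ddit4 and Fkbp5 whose signals carry the results, and are shown so that the letters before these genes can be compared. Capitals mark 3 motifs searched on both strands: the E-box CACGTG, to which the circadian clock and MYC families bind, the CCAAT box, whose complement reads ATTGG, and the p53 half-site. No match overlapped another. Each run is written 5′ to 3′ on the strand of the gene.
Cdkn1a, chr17:29090729-29090978, plus strand: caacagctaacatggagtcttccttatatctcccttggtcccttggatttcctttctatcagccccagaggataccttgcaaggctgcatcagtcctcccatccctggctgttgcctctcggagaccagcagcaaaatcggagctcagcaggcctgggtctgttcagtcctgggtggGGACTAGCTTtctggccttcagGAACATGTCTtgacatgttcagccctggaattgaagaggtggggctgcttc
Gadd45a, chr6:67037408-67037657, minus strand: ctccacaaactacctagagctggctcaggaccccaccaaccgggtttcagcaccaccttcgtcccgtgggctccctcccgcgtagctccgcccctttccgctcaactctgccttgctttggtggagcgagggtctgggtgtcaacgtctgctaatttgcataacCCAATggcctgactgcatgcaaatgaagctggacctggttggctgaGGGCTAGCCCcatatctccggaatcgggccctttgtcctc
Gadd45b, chr10:80929841-80930090, plus strand: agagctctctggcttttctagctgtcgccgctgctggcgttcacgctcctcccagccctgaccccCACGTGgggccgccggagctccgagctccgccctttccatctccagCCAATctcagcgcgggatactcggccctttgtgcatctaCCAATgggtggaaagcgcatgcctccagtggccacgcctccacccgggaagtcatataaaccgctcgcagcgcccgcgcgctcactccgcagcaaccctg
Gadd45g, chr13:51846425-51846674, plus strand: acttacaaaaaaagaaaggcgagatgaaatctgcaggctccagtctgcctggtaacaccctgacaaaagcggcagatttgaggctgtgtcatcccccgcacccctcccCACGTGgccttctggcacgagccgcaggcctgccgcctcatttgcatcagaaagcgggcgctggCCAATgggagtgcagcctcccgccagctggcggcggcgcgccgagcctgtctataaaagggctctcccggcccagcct
Ddit4, chr10:59951771-59952020, minus strand: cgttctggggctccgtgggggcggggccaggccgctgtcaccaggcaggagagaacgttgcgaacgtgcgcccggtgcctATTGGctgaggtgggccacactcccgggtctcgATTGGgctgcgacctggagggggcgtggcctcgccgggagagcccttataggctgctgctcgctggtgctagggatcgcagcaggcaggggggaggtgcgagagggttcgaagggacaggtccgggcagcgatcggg
Fkbp5, chr17:28486150-28486399, minus strand: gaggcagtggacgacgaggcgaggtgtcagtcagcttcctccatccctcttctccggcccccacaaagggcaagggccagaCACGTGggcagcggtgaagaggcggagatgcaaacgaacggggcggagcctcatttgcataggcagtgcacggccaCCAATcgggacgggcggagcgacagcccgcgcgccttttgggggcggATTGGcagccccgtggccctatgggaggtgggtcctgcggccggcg

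The p53 half-site stood in 3 of the 13 windows, those of Cdkn1a, Gadd45a and Mdm2, against 7.13% of all 32851 windows. In Cdkn1a 1 of its 2 windows held 2 matches, starting 73 and 51 bases before the gene. The E-box stood in 4 of the 13 windows, of Gadd45b, Gadd45g, Fkbp5 and Per1, against 6.02% of all windows. The CCAAT box stood in 8 of the 13, from 7 of the genes, against 33.8%. A full glucocorticoid response element (AGAACA, 3 bases of any kind, TGTTCT) was in 0 of the 13 windows and in 0.00913% of all windows. Its half-site AGAACA was in 1 of the 13, a window of Tsc22d3, against 16.1%. The cyclic AMP response element TGACGTCA was in 0 of the 13 and in 1.55% of all. These motifs were kept after a wider set had been looked at, and a match describes letters, not a bound site.

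Values are MAS5 signals, brightness in intensity units after scaling of each array to a common trimmed mean, and n is 3 mice a group throughout. Differences are on the log2 scale with their standard error (SE), from limma fitted over all genes of a tissue, and called where the Benjamini-Hochberg adjusted p was under 0.05. A gene was tested if its mean log2 signal reached the median probe set, 19.3 units in fat and 13 in liver. All 10 genes passed in both tissues; in liver Rasd1 passed by 0.193 on the log2 scale, and Gadd45a and Rasd1 lay below that level in some groups. Array medians ran between 13.48 and 25.77 units. The 3′ to 5′ signal ratio of Actb, a sign of RNA integrity, differed between groups: its log2 mean was 1.70 in KO and 2.04 in WT livers under HFD, and 1.29 in KO and 1.18 in WT livers on ND. In fat it was 0.732 in KO and 1.44 in WT mice with HFD, and 0.798 and 0.901 on ND. Its part in the results was not tested. Hepatocyte markers summed to 71290 to 112500 units over the liver arrays and adipocyte markers to 13150 to 30060 over the fat arrays. In bulk tissue fewer cells of a type and less RNA per cell cannot be told apart.

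Ffar4, the gene of GPR120, was lower in KO than WT fat on both diets, at 23.1 to 30.5 against 97.3 to 171 units on HFD and at 33.7 to 35.7 against 58.3 to 73.7 on ND. In liver it was low and ran the other way, at 13.51 to 18.3 in KO livers against 0.55 to 1.63 in WT livers on HFD and at 21.5 to 36.8 against 1.07 to 17.3 on ND. The labels do not say whether its probe set lies in the deleted part. The signals of fat go with the genotype labels and those of liver do not, so genotype directions in liver are those of the arrays as labelled.

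More of the genes were called between diets in WT liver than in KO liver or in fat of either genotype: 7 of the 10 were lower on HFD than on ND and 1, Gadd45a, was higher. In this comparison 12.5% of all 11125 genes tested were called, 6.47% higher and 6.04% lower. The median difference of the 10 genes was -2.15, against -0.00287 over all genes, and groups did not overlap for 9 of the 10, against 28.9% of all genes. The list was chosen with results known, so these counts describe it and do not test it.

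**Figure D1:**
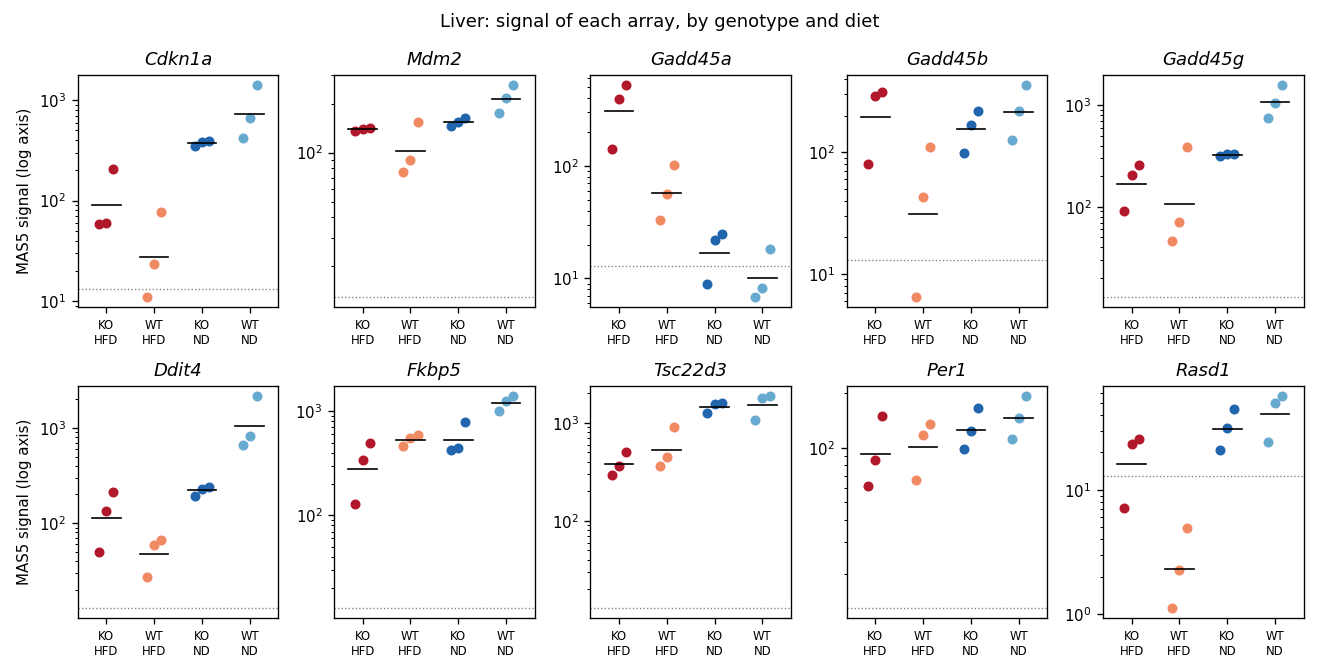
MAS5 signal (log axis, intensity units) of each of the 10 genes on every liver array, by genotype and diet; points are mice sorted by value within a group, bars are geometric means and the dotted line is the level of 13 units needed for testing. Cdkn1a on HFD sits between 59.0 and 206 in KO and between 10.98 and 77.2 in WT livers, below all livers on ND, and Gadd45a runs the other way.

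Cdkn1a signals were 23.4, 10.98 and 77.2 in WT livers on HFD, against 664, 1407 and 422 in WT livers on ND. Every HFD liver lay below every ND liver, and the diet difference of -4.76 ± 0.63 (SE; 27.1-fold lower; adjusted p = 0.000769) was kept in every alternative run. Its brightest other probe set gave -5.37 (adjusted p = 0.00534). Mdm2, which acts against p53, had 90.0, 76.0 and 154 in WT livers on HFD and 174, 259 and 217 on ND. These groups were apart by a small gap, with a difference of -1.07 ± 0.22 (adjusted p = 0.00751). Mdm2 was not called by its second brightest probe set (-0.76; adjusted p = 0.122) or when only the groups compared were fitted (adjusted p = 0.0503).

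The 3 Gadd45 genes did not move together. Gadd45g signals were 385, 70.2 and 46.1 in WT livers on HFD, against 739, 1045 and 1566 on ND. The groups did not overlap, although mouse 546 lay well above the other HFD livers, and the difference was -3.31 ± 0.60 (adjusted p = 0.0043). Gadd45b had 6.47, 43.3 and 110 on HFD and 126, 355 and 218 on ND. The groups were narrowly apart, with a difference of -2.77 ± 0.81 (adjusted p = 0.0419) that was lost without mouse 546, 547, 687 or 690 (adjusted p = 0.123, 0.0795, 0.137 and 0.0888), with no filter (0.0692), with no variance trend (0.0857) or with only these groups fitted (0.0974). Gadd45a ran the opposite way, with 102, 56.4 and 33.3 on HFD against 18.2, 8.25 and 6.86 on ND. Every HFD liver was brighter than every ND liver. The ND mean of 11.1 lay under the level of 13, so Gadd45a was at least 4.93-fold higher against that level (fitted difference 2.51 ± 0.56, adjusted p = 0.0123). Without mouse 546 the adjusted p was 0.0553.

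Ddit4, the brake on mTORC1, had 67.3, 27.2 and 59.2 in WT livers on HFD, against 661, 2147 and 822 on ND. The groups were far apart, with a difference of -4.46 ± 0.51 (22.1-fold lower; adjusted p = 0.000247) kept in every alternative run.

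Of the 4 genes introduced above as induced by the glucocorticoid receptor, Tsc22d3 and Rasd1 were called lower in WT livers on HFD. Fkbp5 and Per1 were not called. Ddit4 and Cdkn1a, which also answer to glucocorticoids in liver, are not among these 4 and were called lower, as given above. Tsc22d3 signals were 448, 365 and 911 on HFD and 1869, 1783 and 1061 on ND. Mouse 560 came close to the lowest ND liver without reaching it, and the difference was -1.52 ± 0.31 (adjusted p = 0.00721). Rasd1 had 1.13, 2.25 and 4.98 on HFD and 50.1, 56.7 and 24.4 on ND. All HFD livers lay under the level of 13, so Rasd1 was at least 3.38-fold lower (adjusted p = 0.00167), and the fitted difference of -4.14 rests on dim signals. Rasd1 passed the filter through the livers on ND, the brighter side of this comparison, so its call is given as description. Fkbp5 had 468, 596 and 551 on HFD against 996, 1260 and 1397 on ND. Its groups did not overlap, yet the difference of -1.17 ± 0.38 was not called (adjusted p = 0.0607). Its second brightest probe set gave -2.60 (adjusted p = 0.0345), but was dim on HFD, at 9.23 to 40.2 units in WT livers. For the brightest probe set of Fkbp5, the fit of only these groups gave an adjusted p of 0.00619. Per1 had 117, 65.8 and 135 on HFD and 146, 112 and 193 on ND. Those overlapped, with a difference of -0.53 ± 0.34 (adjusted p = 0.341).

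In KO liver the same diet comparison gave 1 gene higher and 2 lower, where 16.5% of all genes were called, 9.16% higher and 7.37% lower. The median difference of the 10 genes was -0.93, against 0.02 over all genes, and groups did not overlap for 5, against 38.6%. Gadd45a had 392, 140 and 518 in KO livers on HFD and 8.98, 24.8 and 22.0 on ND. All KO HFD livers were several times brighter than all KO ND livers, a difference of 4.17 ± 0.56 (18-fold; adjusted p = 0.000538). Tsc22d3 had 505, 362 and 294 on HFD against 1537, 1266 and 1610 on ND. These groups were wide apart (-1.96 ± 0.31; adjusted p = 0.00135), and both calls were kept in every alternative run. Cdkn1a had 206, 59.0 and 59.5 on HFD and 347, 387 and 391 on ND. The groups did not overlap, but the call (-2.06 ± 0.63; adjusted p = 0.0408) was fragile: it was lost without mouse 428, 429, 718, 719 or 720 (adjusted p between 0.0885 and 0.142), by the second brightest probe set (0.192) or the mean of probe sets (0.127), and with quantile normalization (0.0511), no filter (0.0684) or no variance trend (0.0796).

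The other genes called lower in WT liver were not called between diets in KO liver by their brightest probe sets. Ddit4 had 214, 50.4 and 133 in KO livers on HFD and 242, 230 and 195 on ND. Mouse 427 on HFD lay within the ND range, and the difference was -0.97 ± 0.51 (adjusted p = 0.215). Gadd45b had 291, 79.8 and 315 on HFD and 220, 168 and 99.6 on ND, overlapping groups with a difference of 0.33 ± 0.81 (adjusted p = 0.821). Gadd45g had 203, 90.3 and 256 on HFD and 328, 334 and 319 on ND. Those groups were apart, with -0.96 ± 0.60 (adjusted p = 0.302). Rasd1 had 23.2, 7.14 and 25.7 on HFD and 31.5, 45.1 and 20.9 on ND, and overlapped (-0.93 ± 0.63; adjusted p = 0.339). The differences of Mdm2 (-0.15), Fkbp5 (-0.92) and Per1 (-0.45) were also not called. By their second brightest probe sets Mdm2 (-1.10; adjusted p = 0.027) and Fkbp5 (-3.04; adjusted p = 0.0136) were called lower in KO livers, so for Mdm2 that probe set called KO and not WT liver. Fkbp5 was called without mouse 428 (adjusted p = 0.0288) and by the mean of probe sets (0.0156) too. Its second brightest probe set was dim in KO livers on HFD, at 2.14 to 27.45 units, around the level of 13. The dimmest probe set in that mean had a geometric mean of 1.62 over the liver arrays. Macrophage markers summed to 4243 to 5208 on HFD and 2287 to 2808 on ND in KO livers (5 of 9 called higher), and to 3100 to 3945 and 2332 to 3247 in WT livers, which overlapped (2 higher, 1 lower). Hepatocyte markers summed to 71290 to 79410 on HFD and 86040 to 97410 on ND in KO livers (3 of 9 called lower), and to 86400 to 96890 and 107000 to 112500 in WT livers (1 lower). The 1 lower in WT livers was Tat, which averaged 1642 on HFD and 8447 on ND. Tat is also read below as a glucocorticoid pathway gene, so these sums are not independent of that pathway. The part of these cell markers in the diet differences was not tested.

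**Figure D2:**
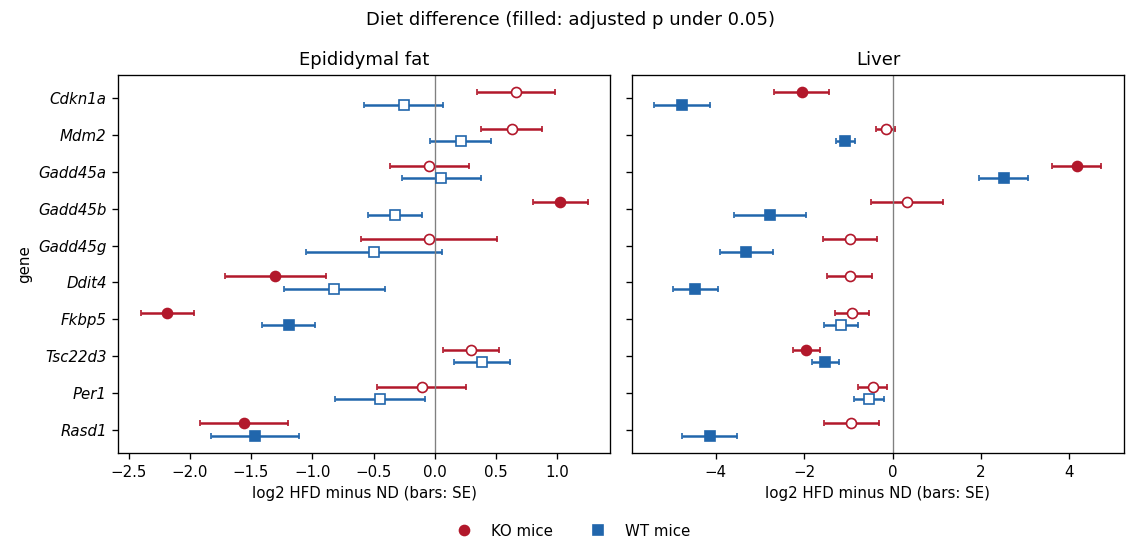
Difference between HFD and ND on the log2 scale with its standard error, for each gene in KO (red circles) and WT mice (blue squares), in fat and liver; filled marks have an adjusted p under 0.05. In liver Cdkn1a lies at -2.06 in KO and -4.76 in WT mice, and Gadd45a is at 4.17 and 2.51; fat spans a narrower axis.

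The diet difference in KO liver minus that in WT liver tested whether the 2 genotypes differed in it. Ddit4 was called, at 3.49 ± 0.72 (adjusted p = 0.0413), where 0.989% of all genes were called, 0.62% higher and 0.369% lower. Its fall on HFD was thus larger in WT than in KO livers. The call was lost without any 1 of 8 arrays, mice 427, 429, 546, 547, 687, 718, 719 or 720 (adjusted p between 0.0541 and 0.0957), and with no filter (0.0661), the mean of probe sets (0.0596) or no variance trend (0.104). Rasd1 (3.20; adjusted p = 0.114), Gadd45b (3.10; 0.216), Cdkn1a (2.70; 0.171), Gadd45g (2.35; 0.205) and Mdm2 (0.92; 0.172) had positive differences that were not called. For these 5 genes a difference between the genotypes in the diet effect was therefore not shown; without mouse 546 Gadd45g was called (adjusted p = 0.0307), and without 560 Cdkn1a (0.0461) and Mdm2 (0.0266). Tsc22d3 (-0.43), Fkbp5 (0.25) and Per1 (0.08) lay nearer 0, and Gadd45a was at 1.66 (adjusted p = 0.336).

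Between genotypes on HFD, Gadd45a was higher in KO than in WT livers, and Rasd1 was called higher too from dim signals, where 6.71% of all genes were called, 3.73% higher and 2.98% lower. Gadd45a, with 392, 140 and 518 in KO against 102, 56.4 and 33.3 in WT livers, did not overlap, and differed by 2.41 ± 0.56 (adjusted p = 0.023). Its adjusted p was 0.103 without mouse 427, 0.0864 without 429, 0.0646 without 547, 0.0655 without 560 and 0.0536 without a variance trend. Rasd1 had 23.2, 7.14 and 25.7 in KO and 1.13, 2.25 and 4.98 in WT livers, groups that were apart but dim: 2 of the 3 KO livers and no WT liver reached the level of 13, and Rasd1 passed the filter through the livers on ND. With only the HFD livers fitted it was not tested. Against that level it was at least 1.44-fold higher (adjusted p = 0.0196), and the call was lost without mouse 427, 429, 546 or 547 (adjusted p = 0.0951, 0.074, 0.0667 and 0.0529). The groups did not overlap for these 2 of the 10 genes, against 29.3% of all genes. The other 8 were not called. Of these, Gadd45b had the largest difference (2.63 ± 0.81, adjusted p = 0.0704), with 79.8 to 315 units in KO and 6.47 to 110 in WT livers. Gadd45b was called by its second brightest probe set (2.35, adjusted p = 0.043), and without mouse 428 (adjusted p = 0.0477) or 560 (0.0173). Also not called but called without 1 array were Cdkn1a without 560 (adjusted p = 0.0212), and Ddit4 and Fkbp5 without 428 (0.0413 and 0.0464). On HFD macrophage markers summed to 4243 to 5208 units in KO and 3100 to 3945 in WT livers, and hepatocyte markers to 71290 to 79410 and 86400 to 96890. Adipocyte markers summed to 1027 to 1246 in KO and 340.8 to 416.1 in WT livers, with 3 of 4 tested, Fabp4, Cidec and Pparg, called higher. Their part was not tested.

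On ND, Ddit4 was lower in KO than in WT livers, with 242, 230 and 195 in KO and 661, 2147 and 822 in WT livers. Every KO liver lay below every WT liver, a difference of -2.25 ± 0.51 (adjusted p = 0.0257), where 4.71% of all genes were called, 2.22% higher and 2.49% lower. The call was lost without mouse 687, the brightest WT liver, or without 718, 719 or 720 (adjusted p = 0.0993, 0.0728, 0.0622 and 0.09), or with no variance trend (0.0677). Groups did not overlap for 5 of the 10 genes, against 25.6% of all: Ddit4, Cdkn1a, Gadd45g, Mdm2 and Fkbp5 had lower signals in all KO livers. Gadd45g was at 319 to 334 in KO and 739 to 1566 in WT livers (-1.71 ± 0.60; adjusted p = 0.126). Fkbp5 was at 427 to 788 and 996 to 1397 (-1.19 ± 0.38; adjusted p = 0.0938). Cdkn1a (-0.97) and Mdm2 (-0.47) were not called either. With only the ND livers fitted, Gadd45g (adjusted p = 0.00443) and Fkbp5 (0.0254) were called. The comparisons of this paragraph and of the diets within a genotype share arrays, so their values are not independent.

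**Figure D3:**
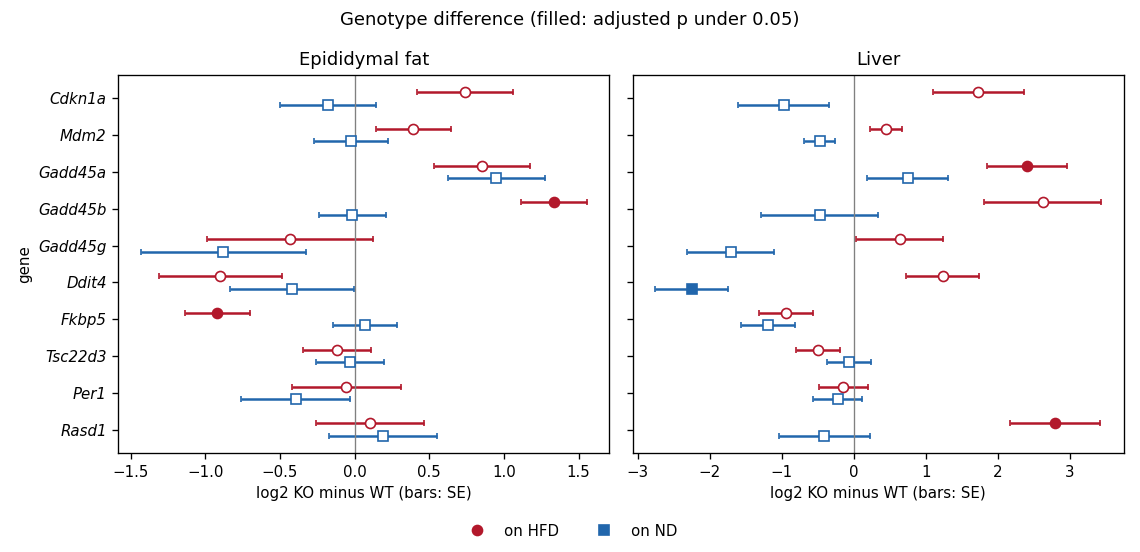
Difference between KO and WT mice on the log2 scale with its standard error, on HFD (red circles) and ND (blue squares), in fat and liver; filled marks have an adjusted p under 0.05. In liver Gadd45a and the dim Rasd1 on HFD (fitted 2.41 and 2.80) and Ddit4 on ND (-2.25) are filled, and in fat Gadd45b (1.33) and Fkbp5 (-0.92) on HFD.

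The fat arrays need a caution before their values. Markers of epididymis, the organ next to this fat, summed to 35.5 to 5422 units in KO and 33.3 to 40.3 in WT fat on HFD, against 48300 to 58690 in KO and 42020 to 66580 in WT fat on ND. Mouse 427 is the HFD array at 5422. All 10 listed epididymis markers were called lower on HFD in WT fat. Epithelial markers, sperm markers in the WT ND fat of mice 686 (20120 units) and 690 (14120, against 1336 in 687) and skeletal muscle markers in mouse 547 (6143) also stood apart. Macrophage markers summed to 15830 to 24330 in KO and 7083 to 11170 in WT fat on HFD, and to 3931 to 4958 and 2676 to 3407 on ND. Endothelial markers summed to 1802 to 2682 in KO and 5457 to 5836 in WT fat on HFD. A diet difference in fat and the amount of epididymis in the sample cannot be told apart.

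**Figure D4:**
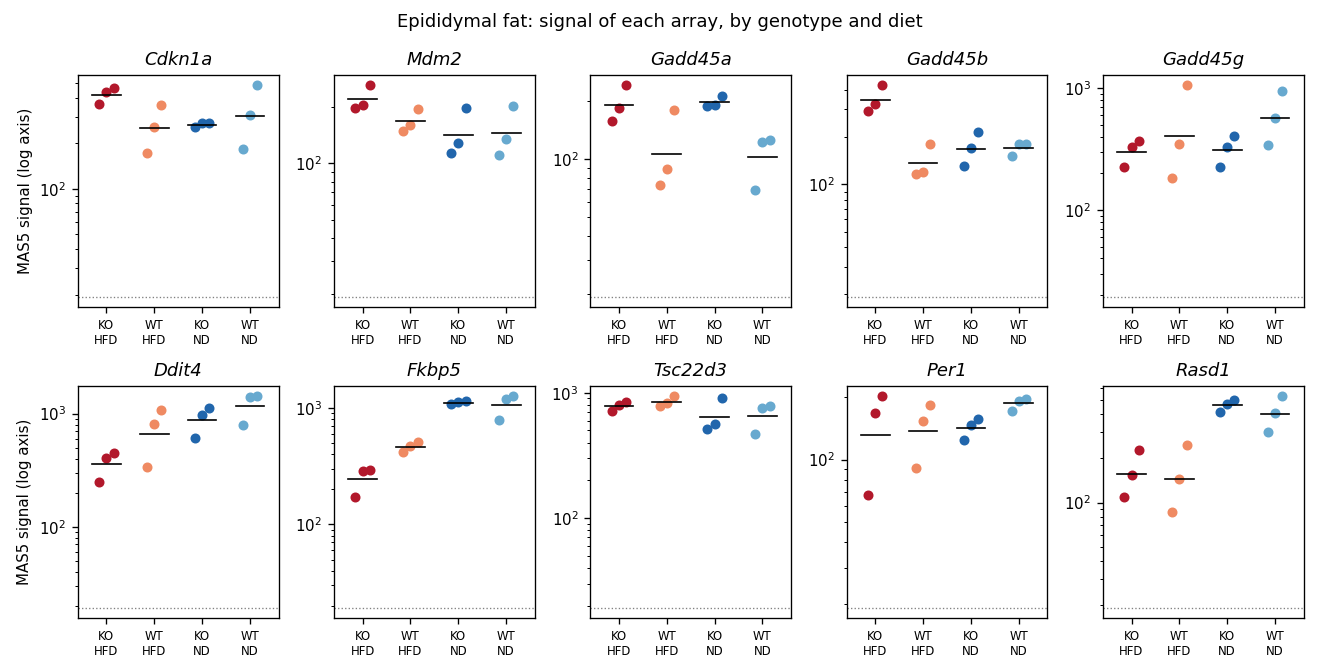
MAS5 signal (log axis, intensity units) of each of the 10 genes on every fat array, by genotype and diet; points are mice sorted by value within a group, bars are geometric means and the dotted line is the level of 19.3 units needed for testing. Fkbp5 sits between 173 and 296 in KO and 415 and 506 in WT fat on HFD, below all fat arrays on ND, at 1079 to 1149 in KO and 794 to 1264 in WT mice.

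Fkbp5 and Rasd1 were lower on HFD in fat of both genotypes. Fkbp5 had 296, 289 and 173 in KO fat on HFD and 1149, 1119 and 1079 on ND. These groups were far apart, with -2.18 ± 0.22 (adjusted p = 2.15e-05). In WT fat it had 506, 476 and 415 on HFD and 1195, 1264 and 794 on ND. Again all HFD arrays lay below all ND arrays (-1.19 ± 0.22; adjusted p = 0.000821). Rasd1 had 154, 227 and 109 in KO fat on HFD against 501, 468 and 414 on ND (-1.56 ± 0.36; adjusted p = 0.00448). In WT fat it had 86.0, 145 and 246 on HFD against 530, 406 and 303 on ND (-1.47 ± 0.36; adjusted p = 0.00518). Neither pair overlapped, and all 4 of these calls were kept in every alternative run made for them. Runs without mice 427 and 547 were among these, and for WT fat also runs without 686 and 690.

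In KO fat Ddit4 was also lower and Gadd45b higher on HFD, so that 1 of the 10 genes was higher and 3 lower, where 48.7% of all genes were called, 22.1% higher and 26.6% lower. Ddit4 had 446, 250 and 402 on HFD and 1125, 611 and 974 on ND. The groups were apart, with -1.30 ± 0.41 (adjusted p = 0.0229), a call lost without mouse 428, 718 or 720 (adjusted p = 0.0891, 0.082 and 0.0659). Gadd45b had 323, 295 and 426 on HFD against 216, 169 and 132 on ND. All HFD arrays were brighter, with 1.02 ± 0.22 (adjusted p = 0.00305). Groups did not overlap for 6 of the 10, against 62.2% of all genes. In WT fat Fkbp5 and Rasd1 made 2 of the 10 lower and 0 higher, where 55.3% of all genes were called, 27.9% higher and 27.4% lower. Groups there did not overlap for 3 of the 10, against 61.2%. A share of 20% or 40% called is under the share of all genes in these comparisons. Gadd45a, the gene called higher on HFD in liver of both genotypes, differed in fat by -0.04 ± 0.32 in KO and 0.05 ± 0.32 in WT mice. Its fat signals on HFD were 158 to 242 in KO and 73.8 to 181 in WT mice, against 189 to 213 in KO and 69.7 to 125 in WT mice on ND. Tsc22d3 differed by 0.29 in KO and 0.38 in WT fat, but its second brightest probe set gave -0.66 (adjusted p = 0.0285) and -0.81 (adjusted p = 0.00928), so its direction in fat is not settled. Mdm2 was also split between its probe sets, at 0.21 and -2.69 (adjusted p = 0.494 and 0.000388) in WT fat. Cdkn1a was not called by its brightest probe set, at 0.66 in KO (adjusted p = 0.11) and -0.26 in WT fat (0.519). Its second brightest probe set gave 0.69 in KO fat (adjusted p = 0.0537) and was called lower on HFD in WT fat, at -1.01 (0.00823).

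Between genotypes on HFD in fat, Gadd45b was higher and Fkbp5 lower in KO mice, where 22.5% of all genes were called, 11.1% higher and 11.4% lower. Gadd45b had 323, 295 and 426 in KO and 120, 182 and 116 in WT fat. The groups were apart, with 1.33 ± 0.22 (2.52-fold; adjusted p = 0.00227), and without mice 427 and 547 the difference was 1.59 (adjusted p = 0.00187). Fkbp5, with 296, 289 and 173 in KO and 506, 476 and 415 in WT fat, did not overlap either, and differed by -0.92 ± 0.22 (adjusted p = 0.0121). That call was lost with its probe sets averaged (adjusted p = 0.228) and by the second brightest one (-1.01; adjusted p = 0.443). The second brightest was dim here, averaging 12.6 in KO and 15.1 in WT fat, under the level of 19.3. The dimmest probe set in the average had a geometric mean of 1.37 over the fat arrays. Groups did not overlap for 4 of the 10, against 38% of all genes; the other 2 were Cdkn1a and Mdm2, neither called. Cdkn1a had 366, 465 and 437 in KO and 258, 172 and 360 in WT fat. Its lowest KO array stood just above its highest WT array (0.74 ± 0.32; adjusted p = 0.123), while its second brightest probe set was called, at 1.53 (adjusted p = 0.00285). Gadd45a had 242, 158 and 184 in KO and 73.8, 181 and 89.2 in WT fat. Mouse 547 alone among WT mice reached the KO range. The difference of 0.85 ± 0.32 (adjusted p = 0.0804) was called without that mouse (adjusted p = 0.01). Leaving out both mice 427 and 547 gave 4 called in place of 2. Ddit4 (-0.90), Gadd45g (-0.43), Mdm2 (0.39), Tsc22d3 (-0.12), Per1 (-0.06) and Rasd1 (0.10) were not called. In this comparison 9 of 10 macrophage markers were called higher in KO fat (median 2.03). All 9 endothelial markers tested were called lower (median -1.22). The part of these cell types in the differences was not tested.

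On ND 0 of the 10 differed between KO and WT fat by limma, where 0.25% of all genes were called, 0.215% higher and 0.0344% lower; 1, Gadd45a, had an unadjusted p under 0.05. Gadd45a had 192, 213 and 189 in KO and 125, 69.7 and 123 in WT fat. All KO arrays were brighter (0.95 ± 0.32), but the adjusted p was 0.228. Groups did not overlap for 2 of the 10, Gadd45a and Per1, against 23.2% of all genes. The diet difference in KO fat minus that in WT fat was called for Gadd45b, at 1.35 ± 0.31 (adjusted p = 0.0223), where 11% of all genes were called, 3.76% higher and 7.2% lower. That call was lost without mice 686 and 690 together (adjusted p = 0.0946) and without 429, 546, 560, 719 or 720 (adjusted p between 0.0511 and 0.0567). Fkbp5 was at -0.99 (adjusted p = 0.0611), and was called without the fat of mouse 427 (adjusted p = 0.0409). Cdkn1a was at 0.92 (adjusted p = 0.213), whereas its second brightest probe set was called, at 1.695 (adjusted p = 0.0193).

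The 2 tissues of the same mice were also set against each other. The KO minus WT difference on HFD was lower in fat than in liver for Rasd1, by -2.70 ± 0.74 (adjusted p = 0.0204), where 12.7% of all genes were called, 5.32% higher and 7.39% lower. The liver side of this difference rests on the dim signals given above, where the genotypes differed by at least 1.44-fold, so its size is not settled; with only the HFD arrays fitted Rasd1 was not tested. The call was also lost without the liver array of mouse 427, 429 or 546 or the fat array of 429 or 560 (adjusted p between 0.0548 and 0.0641). Ddit4 was at -2.14 ± 0.72 (adjusted p = 0.0545), and became called with the mouse as a block (adjusted p = 0.00513) or without the liver of mouse 428 (0.0138) or the fat of 547 (0.0184). Gadd45a (-1.55; adjusted p = 0.158) was called without the liver of 428 (0.0462), and the remaining 7 were not called. Fat and liver of WT mice on HFD differed for 7 of the 10, all higher in fat, where 65.3% of all genes were called, 39.3% higher in fat and 26% lower. Rasd1 had 86.0, 145 and 246 in fat and 1.13, 2.25 and 4.98 in liver of these mice. Its tissues were apart, and since the livers lay under the level of 13 it was at least 12.3-fold higher in fat (adjusted p = 2.58e-09). In liver Rasd1 passed the filter through the livers on ND, and with only these 2 groups fitted it was not tested. Ddit4 had 800, 339 and 1070 in fat and 67.3, 27.2 and 59.2 in liver (3.80 ± 0.51; adjusted p = 1.26e-06). Cdkn1a, at 172 to 360 in fat and 10.98 to 77.2 in liver, likewise did not overlap (3.22 ± 0.56; adjusted p = 3.5e-05). Gadd45b (2.12; adjusted p = 0.00913), Gadd45g (1.92; 0.0117), Mdm2 (0.72; 0.0136) and Tsc22d3 (0.68; 0.048) were called too. These calls hung on single arrays: Gadd45b on the liver of mouse 546 (adjusted p = 0.104 without it), and Gadd45g on the fat of 546 (0.103) and the livers of 547 (0.0562) and 560 (0.0913). They hung on settings too. With only these 2 groups fitted, Gadd45b (adjusted p = 0.0566), Gadd45g (0.0718) and Tsc22d3 (0.0726) were not called. With quantile normalization Mdm2 was not called (adjusted p = 0.132). Mdm2 was not called without the liver of 546 (adjusted p = 0.0533) or 547 (0.0937) or the fat of 560 (0.061), nor Tsc22d3 without the fat of 546, 547 or 560 or the liver of 546 or 547 (adjusted p between 0.0645 and 0.259) or with the mouse as a block (0.0606). For Mdm2 the second brightest probe set was called the other way (-1.28; adjusted p = 0.00689), and Tsc22d3 turned to -0.34 by the mean of its probe sets. Groups did not overlap for 4 of the 10, against 69.3% of all genes.

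Other genes of the pathways were read from 4 lists. Of 27 tested genes of the glucocorticoid receptor pathway, 12 were lower and 2 higher on HFD in WT liver, with a median of -0.60; of all genes 6.04% were lower and 6.47% higher. Tat, a liver enzyme of tyrosine breakdown, averaged 1642 ± 897 in HFD and 8447 ± 617 in ND WT livers (SD; -2.49 ± 0.31 SE, adjusted p = 0.000481). The metallothioneins Mt1 (-2.05) and Mt2 (-2.46) and the lipase inhibitor Angptl4 (-0.67) were lower too. The 2 higher genes, named after their values were seen, were Nr3c1 (0.65), the receptor itself, and Fkbp4 (0.56), its co-chaperone. In KO liver 7 of the 27 were lower on HFD and 1 higher, against 7.37% and 9.16% of all genes; Angptl4 (-1.83), Pck1 (-1.07), Stip1 (-0.82) and Zbtb16 (-2.88) had the smallest p. Of 18 other p53 pathway genes, 2 were lower on HFD in WT liver, Trp53inp1 (-2.10) and Ei24 (-0.97), and in KO liver 3 were higher and 2 lower; the share called in WT liver is near the 12.5% of all genes. Btg2, an antiproliferative p53 target, averaged 798 ± 518 in HFD and 98.9 ± 26.8 in ND KO livers (2.74 ± 0.44 SE, adjusted p = 0.00158). Of the partners and targets of Gadd45 and Ddit4, where 12.5% of all genes were called in WT and 16.5% in KO liver, those called were 1 of 21 in WT (Rheb, the GTPase that activates mTORC1, 0.42) and 1 of 21 in KO (Map2k4, 0.52). Of 16 cyclins, kinases and inhibitors, 1 was higher and 1 lower in WT liver, Ccnd2 (1.06) and Ccnd3 (-0.47), and 2 were higher and 2 lower in KO liver; the WT share too is that of all genes.

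Between genotypes on HFD in liver, Btg2 (2.41), Dusp1 (2.27), a phosphatase of stress kinases that glucocorticoids induce, and Pdk4 (1.43) were higher in KO, and Angptl4 (-0.79), Stip1 (-0.83), Rheb (-0.49) and Mapk14 (-0.43) lower. Cdk6 (0.73) was the 1 called of 16 cell cycle genes. Of 18 other p53 genes 1 was called, of 27 glucocorticoid genes 2 were higher and 2 lower, and of 21 partners 2 were lower. Of all genes 6.71% were called, and the p53 and cell cycle lists were called at about that share. On ND, Mt1 (-2.004), Mt2 (-2.03) and Cdkn2c (-1.03) were lower in KO livers and Fkbp4 (0.81) higher. Among 27 glucocorticoid genes 1 was thus higher and 2 lower, and among 16 cell cycle genes 1 was lower. No other p53 gene or partner was called there, and of all genes 4.71% were. In fat on HFD, 8 of 26 glucocorticoid pathway genes were lower in KO and 1 higher, with a median of -0.51 against -0.03 over all genes, of which 11.4% were lower and 11.1% higher. Adipocyte markers summed to 18100 to 27220 in KO and 27610 to 30060 in WT fat in this comparison, with Retn, Pparg and Lipe of 8 called lower and a list median of -0.62; their part was not tested. Pck1 averaged 677 ± 225 in KO and 3102 ± 925 in WT fat (-2.20), and Hsd11b1, the enzyme that regenerates active glucocorticoid, 436 ± 129 and 1870 ± 816 (-2.05). Zbtb16 (-1.62) and Klf15 (-1.22) followed. Of 19 cell cycle genes, 6 were higher in KO fat and 0 lower, led by Cdk6 (1.59), Pcna (1.09), Ccna2 (1.70) and Cdkn2b (0.72); macrophage marker sums were higher in the same arrays. Of 18 other p53 genes, Plk2 (1.52) and Btg2 (0.61) were higher and Rrm2b (-0.77) and Mdm4 (-0.54) lower, and of 20 partners 1 was higher and 4 lower, led by Asns (-1.69). Both lists were called at about the 22.5% of all genes. On ND 0 genes of the 4 lists were called in fat by limma.

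Among all tested genes, the 3 whose centred log2 signals over the 12 liver arrays were nearest to those of Cdkn1a were Ddit4, Cyp39a1 and Rasd1, with root mean square differences of 0.822, 0.845 and 0.929 against an SD of 2.01 for Cdkn1a itself. Cyp39a1, an oxysterol hydroxylase, averaged 52.99 ± 13.2 in KO and 33.0 ± 7.85 in WT livers on HFD, and 247 ± 60.1 and 401 ± 147 on ND. The nearest to Fkbp5 in liver were Nxph3 (0.374), Epha4 (0.379) and Fbxo31 (0.383), against an SD of 0.888. In fat they were Acot11 (0.231), Mier2 (0.257) and Tubgcp5 (0.272) for Cdkn1a, whose SD was 0.466, and Nadk2 (0.208), Pla2g12a (0.222) and Kantr (0.224) for Fkbp5, whose SD was 0.937.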

How the data were processed

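RNA of 24 mouse tissue samples was measured on Affymetrix arrays of 45101 probe sets. The deposited values are intensity signals made with MAS5, per the submitters' processing notes; the MAS5 version was not given in the sources used here. No depth applies to arrays, and 3 mice a group limit the precision. Probe sets were named from the platform annotation updated through RefSeq: 34945 name 1 gene, 932 several and 9160 none, and only the first kind was used. Signals were floored at the 10th percentile of their tissue (1.08 in fat, 1.1 in liver), put on the log2 scale and fitted with limma 3.58.1 in R 4.3.3, with all 4 groups of a tissue (8 residual degrees of freedom) or all 8 groups (16), a variance trend and Benjamini-Hochberg adjustment over 11613 genes in fat, 11125 in liver and 10119 in both. Replicates are separate mice. Fat and liver of 1 mouse are paired by the labels; their deviations from group means correlated between 0.0335 and 0.125, over 0.1 in 4 of 12 mice.

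The members and lists were chosen with earlier results of these data known. The genes named are the 10, up to 4 called genes of smallest p per list and comparison, the 3 nearest genes of Cdkn1a and Fkbp5, and Ffar4. The brightest probe set stands for a gene. Bounds of the form at least N-fold use the level needed for testing in place of the dimmer group's mean. Motifs were searched with exact letters. Alternatives changed the scaling, filter, floor, probe set rule, trend, arrays fitted, mouse block and arrays left out.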

Additional observations from a re-analysis of the deposited data

Results flagged for a closer look

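Several diet differences were not the same in KO and WT mice by the test of the difference itself, over the 10 genes and up to 4 called genes of smallest p per list (diet difference in KO minus that in WT, limma). In liver these were Ddit4 at 3.491 (SE 0.718, adjusted p = 0.0413), Btg2 at 3.232 (SE 0.623, adjusted p = 0.0316), Dusp1 at 2.214 (SE 0.474, adjusted p = 0.0482), Angptl4 at -1.159 (SE 0.171, adjusted p = 0.012), Stip1 at -1.007 (SE 0.199, adjusted p = 0.0342) and Fkbp4 at -1.044 (SE 0.226, adjusted p = 0.0492). In fat they were Gadd45b at 1.349 (SE 0.315, adjusted p = 0.0223), Plk2 at 1.462 (SE 0.347, adjusted p = 0.0237), Pck1 at -3.226 (SE 0.471, adjusted p = 0.00431), Nr3c1 at -0.9082 (SE 0.173, adjusted p = 0.0114), Hsd11b1 at -2.223 (SE 0.484, adjusted p = 0.0173) and Angptl4 at -1.203 (SE 0.311, adjusted p = 0.0322). Also in fat were Ddit3 at 0.8233 (SE 0.205, adjusted p = 0.0283), Cdk6 at 1.565 (SE 0.302, adjusted p = 0.0117), Pcna at 1.128 (SE 0.24, adjusted p = 0.0163), Cdkn1b at -0.8022 (SE 0.196, adjusted p = 0.0263) and Ccna2 at 1.513 (SE 0.389, adjusted p = 0.0317). Of all genes 0.989% were called by this test in liver and 11% in fat. Ddit4 lost its call in 11 of 18 alternative runs and Gadd45b in 6 of 20. In fat 6 of 10 macrophage markers were called higher by this test and 8 of 9 endothelial markers lower, and their part was not tested.

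Rasd1 was called different between tissues in its genotype effect on HFD, at -2.695 for fat minus liver (SE 0.737, adjusted p = 0.0204). Its WT livers on HFD averaged 2.79 units, under the level of 13, so the size of this value is not settled. With only the HFD arrays fitted Rasd1 was not tested.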

How the results depend on the processing

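With 3 mice a group, 1 array decided many calls. Results of the 10 genes were recomputed only where their unadjusted p was under 0.05, which left out all of Per1. Other pathway genes were recomputed only where called. Of 771 such values of the 10 genes, 656 kept direction and side of the threshold, 81 lost the call, 28 gained one and 6 turned round. Of 1702 of the other pathway genes, 1445 kept both, 254 lost the call and 3 turned round. Turned signs among the results left out are not in these counts. The cause was not tested. Leaving out 1 array gave these counts called: 6 to 8 (8 with all) for HFD against ND in WT liver, 2 to 3 (3) in KO liver, 2 to 3 (2) in WT fat, 3 to 4 (4) in KO fat, 0 to 3 (1) for the genotype difference in diet effect in liver, 0 to 2 (1) in fat, 0 to 5 (2) for KO against WT on HFD in liver, 0 to 1 (1) on ND in liver, 2 to 4 (2) on HFD in fat, 0 to 0 (0) on ND in fat, 0 to 3 (1) for the tissue difference in genotype effect and 4 to 6 (7) for fat against liver.

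Other settings moved the counts as follows. Without mice 427 and 547, 4 genes in place of 2 were called for KO against WT on HFD in fat. Without mice 686 and 690, 0 in place of 1 were called for the genotype difference in diet effect in fat. The fit without a variance trend gave 1 in place of 2 (KO against WT on HFD, liver), 0 in place of 1 (on ND, liver) and 0 in place of 1 (genotype difference in diet effect, liver); for the last, no filter and the mean of probe sets also gave 0. Fitting only the groups compared gave 1, 3, 0 and 3 in place of 2, 1, 1 and 7, for KO against WT in liver on HFD and ND, the tissue difference in genotype effect, and fat against liver; all but the ND fit left Rasd1 untested, under the level. With the mouse as replicate block, 2 in place of 1 were called for that tissue difference and 6 in place of 7 for fat against liver. The second brightest probe set, an alternative chosen after seeing the data, gave 5 in place of 2 in WT fat by diet and 2 in place of 1 for the genotype difference in diet effect in fat; of 60 comparisons its sign was opposite in 16.

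By that probe set Mdm2 turned to -0.61 (diet, KO fat), 0.0702 (KO against WT on ND, liver), -0.33 (genotype difference in diet effect, liver) and -1.28 (fat against liver). By the mean of probe sets, Mdm2 turned to -0.46, Tsc22d3 to -0.34 and Hif1a to -0.22 (fat against liver), Map2k4 to -0.0757 (diet, KO liver) and Fkbp4 to -0.00097 (KO against WT on ND, liver). Dim signals limit Rasd1 and Gadd45a in liver. They also limit the second brightest probe sets of Fkbp5 in fat and liver on HFD and of Mdm2 in WT fat on HFD.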
